A study of Homo sapiens with 12 samples.

Results

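The genes described here run mitosis: 45 genes for the kinases that start it, the spindle, the kinetochores, the spindle checkpoint and cytokinesis, out of 57992 genes in the count table. They were taken by symbol from a list of mitotic machinery, and all 45 were found and had enough counts to be tested in every comparison. RNA sequencing compared a pair of human cell lines from breast cancers, BT-549 and SUM149, with and without silencing of MUC1. The groups were BT-549 with the MUC1 hairpin (MUC1shRNA), BT-549 with the control hairpin (CshRNA), SUM149 with MUC1shRNA and SUM149 with CshRNA, with 3 libraries in each. Both lines model triple-negative breast cancer, which lacks estrogen receptor, progesterone receptor and HER2, and the hairpins were stably expressed from transfected constructs. MUC1 encodes a large mucin of the cell surface with a signalling tail inside the cell. Some labels name the BT-549 control "vector", so it is not certain that this control carried a hairpin, and no source used here gives the hairpin's sequence. BT-549 was grown in RPMI1640 and SUM149 in Ham's F-12 with hydrocortisone. The labels mention 3 sets of cells per group without saying how these arose. The p-values therefore cover the spread among these libraries alone, which may be technical.

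Mitosis begins when CDK1, bound to cyclin A or cyclin B, phosphorylates a wide range of proteins, helped by the Polo and Aurora kinases. Microtubules driven by kinesin motors form the spindle and attach to chromosomes at kinetochores, which are built on centromeric chromatin marked by the histone variant CENPA. Kinetochores without proper attachment send a checkpoint signal through TTK, BUB1, BUB1B, BUB3 and MAD2L1 that holds back CDC20, the activator of the anaphase-promoting complex (APC/C), a ubiquitin ligase. Once the signal stops, the APC/C destroys securin (PTTG1) and cyclin B, separase (ESPL1) cuts the cohesin ring, and a contractile ring scaffolded by anillin (ANLN) splits the cell. Many of these genes are transcribed in late S and G2 phase under FOXM1, MYBL2 and the MuvB complex, through CCAAT boxes and a cell-cycle homology region (CHR) near the start site. High expression of the whole group is a familiar feature of fast-dividing breast cancers, and bulk RNA reports it as an average over all cells of the culture.

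The proximal promoters of 6 of the genes are shown because these genes carry the results below: ANLN, KIF23 and KIF20A rose in SUM149, MAD2L1 and SPC24 fell there, and PLK1 has the usual layout of a CCAAT box upstream of a CHR. Each line gives the 120 bases before the RefSeq start site on GRCh38.p14, 5′ to 3′ on the gene's strand. Capitals mark matches to a motif on either strand. The CHR core was searched as TTTGAA, which reads TTCAAA when it lies on the opposite strand. The CCAAT box reads ATTGG when it does so, and MAD2L1 has neither motif in this stretch.
ANLN, chr7:36389742-36389861, plus strand: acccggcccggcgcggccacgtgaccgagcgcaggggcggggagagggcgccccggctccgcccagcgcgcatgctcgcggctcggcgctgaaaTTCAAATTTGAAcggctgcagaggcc
KIF23, chr15:69414229-69414348, plus strand: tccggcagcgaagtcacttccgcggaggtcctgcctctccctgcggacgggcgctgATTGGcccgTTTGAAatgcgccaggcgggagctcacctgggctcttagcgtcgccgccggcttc
PLK1, chr16:23678769-23678888, plus strand: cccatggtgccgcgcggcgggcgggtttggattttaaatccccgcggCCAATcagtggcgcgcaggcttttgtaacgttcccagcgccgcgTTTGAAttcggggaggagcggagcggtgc
KIF20A, chr5:138178992-138179111, plus strand: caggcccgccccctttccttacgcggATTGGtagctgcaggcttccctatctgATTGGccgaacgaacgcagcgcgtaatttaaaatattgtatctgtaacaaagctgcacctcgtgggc
MAD2L1, chr4:120066849-120066968, minus strand: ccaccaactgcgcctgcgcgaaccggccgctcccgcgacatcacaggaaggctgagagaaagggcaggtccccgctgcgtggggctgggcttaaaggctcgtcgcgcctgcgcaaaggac
SPC24, chr19:11155783-11155902, minus strand: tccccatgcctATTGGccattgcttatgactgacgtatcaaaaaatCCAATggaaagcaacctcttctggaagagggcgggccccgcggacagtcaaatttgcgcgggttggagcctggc
In ANLN the CHR core matched on both strands side by side, starting 26 and 20 bases before the start site, and no CCAAT box was found. KIF20A and SPC24 each had a pair of CCAAT boxes and no CHR core in the stretch shown.

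Libraries held 16373893 to 21248768 counts in BT-549 MUC1shRNA, 16332364 to 20745835 in BT-549 CshRNA, 7931614 to 9623924 in SUM149 MUC1shRNA and 19392422 to 24140623 in SUM149 CshRNA. MUC1 fell with its hairpin, to 3.60, 6.01 and 4.28 CPM (counts scaled to the library's size) in BT-549 MUC1shRNA libraries, against 51.9, 53.6 and 54.3 CPM in CshRNA libraries. In SUM149 MUC1 was at 1.06, 0.334 and 0.481 CPM with MUC1shRNA, against 16.4, 16.6 and 12.1 CPM with CshRNA. Its log2 fold changes were -3.53 in BT-549 and -4.59 in SUM149 (quasi-likelihood test of edgeR, adjusted p = 4.2e-07 and 1.8e-08). Replicates that differed most from the rest of their group were BT-549 MUC1shRNA 2, BT-549 CshRNA 3 and SUM149 CshRNA 3. The epithelial markers EPCAM and KRT19 were below 1 CPM in BT-549, a line with high vimentin (VIM), while SUM149 carried EPCAM at 445 CPM with MUC1shRNA and 402 CPM with CshRNA. Not all epithelial markers were low in BT-549. The 7 listed summed there to 807 to 1046 CPM with MUC1shRNA and 329 to 382 CPM with CshRNA, carried by KRT8 and KRT18. In SUM149 they summed to 1896 to 1985 CPM with MUC1shRNA and 1985 to 2021 CPM with CshRNA. Leukocyte markers summed to at most 5.05 CPM in any library, and CD3E was at 0 in all of them.

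Most of the mitotic genes rose when MUC1 was silenced in SUM149, while in BT-549 few changed, and in both directions. In SUM149, 29 of the 45 genes rose with MUC1shRNA, 4 fell and 12 did not pass the test, so that 73.3% were past it, where 56.5% of all 14178 tested genes were. The excess lay in the rising genes: 64.4% of the mitotic genes rose, against 27.6% of all tested genes, and 8.89% fell, against 28.9% of all tested genes. In BT-549, 8 rose, 5 fell and 32 did not pass the test, which is 28.9% past it, near the 33.3% of all 13200 tested genes. The median log2 fold change was -0.01 for the mitotic genes in BT-549, beside -0.01 for all tested genes there, and 0.27 for the mitotic genes in SUM149, beside -0.03 for all tested genes. A gene was counted at an adjusted p below 0.05 over all tested genes of the line (quasi-likelihood test of edgeR with Benjamini-Hochberg adjustment). In bulk libraries a larger share of cells in G2 or mitosis cannot be told apart from more RNA of these genes per cell.

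The shift was present in every SUM149 library with the hairpin. Measured gene by gene against the mean of the CshRNA libraries, the median mitotic gene stood at 0.29, 0.25 and 0.30 on the log2 scale in SUM149 MUC1shRNA 1, 2 and 3, with 36, 35 and 38 of the 45 genes above that mean. The SUM149 CshRNA libraries themselves stood at 0.01, -0.01 and -0.03. In BT-549 the same median was 0.00, 0.05 and 0.02 in the MUC1shRNA libraries and -0.01, 0.00 and 0.03 in the CshRNA libraries, so the arms of that line overlapped. All 3 MUC1shRNA libraries lay above all 3 CshRNA libraries for 29 genes in SUM149 and below them for 6, where 29.3% and 33.2% of all tested genes did so (62.5% in either direction). For BT-549 these counts were 14 and 10, where 23.8% and 23.2% of all tested genes did so (47% in either direction). The 45 genes together took 0.844% to 0.889% of all counts in SUM149 MUC1shRNA libraries, against 0.715% to 0.721% in CshRNA libraries. In BT-549 they took 0.906% to 0.923% with MUC1shRNA, against 0.933% to 0.941% with CshRNA.

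**Figure D1:**
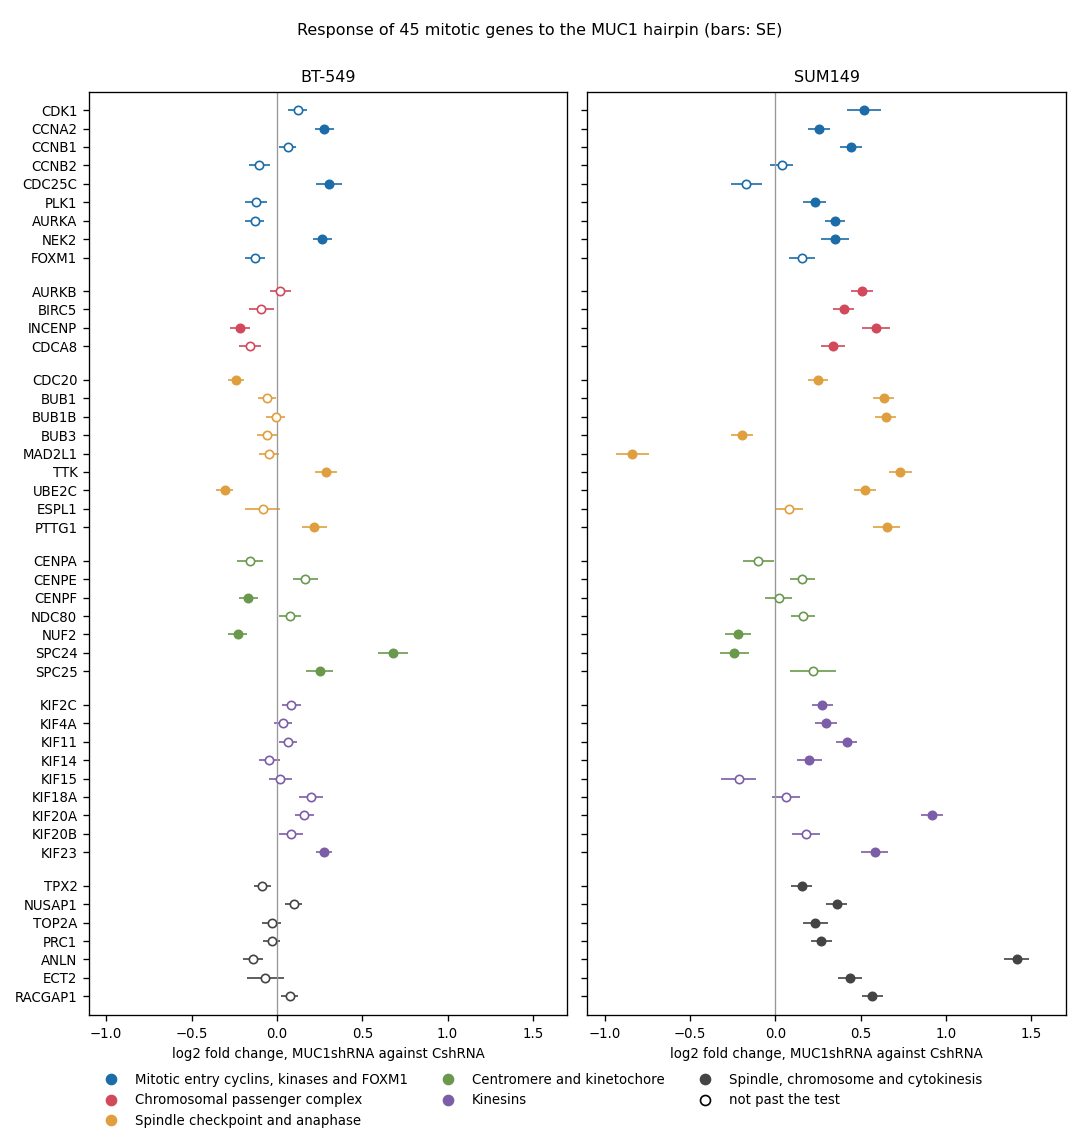
Log2 fold change, MUC1shRNA against CshRNA, of each of the 45 genes (rows, coloured by class) in BT-549 (left) and SUM149 (right), with standard errors as bars and filled points for genes past the test. Points in BT-549 lie on both sides of 0 between -0.31 and 0.68, while most points in SUM149 lie to the right of 0, up to 1.41 for ANLN.

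Other properties moved with the hairpin in SUM149. The sum of 5 mesenchymal markers was 3124 to 3502 CPM with MUC1shRNA and 858 to 959 CPM with CshRNA, carried by fibronectin (FN1), which averaged 3100 and 766 CPM, while VIM averaged 32.2 and 31.4 CPM. Of the 5, 3 rose (60%), where 27.6% of all tested genes did. Endothelial markers, led by PECAM1, summed to 9.44 to 11.2 CPM with MUC1shRNA and 26.8 to 30.2 CPM with CshRNA. ESR1, PGR and ERBB2, receptors low in this tumour type, summed to 39.4 to 44.2 CPM with MUC1shRNA and 58.0 to 63.6 CPM with CshRNA. These receptors did not move together: of the 2 tested in SUM149, 1 rose (log2 fold change 1.09) and 1 fell (-0.67). The MUC1shRNA libraries of SUM149 were also the shallowest of the study. With the CshRNA libraries of SUM149 thinned to the same depth, 29 mitotic genes rose and 2 fell. In BT-549, where mitotic genes did not shift as a group, the sum of 7 epithelial markers was 807 to 1046 CPM with MUC1shRNA and 329 to 382 CPM with CshRNA, carried by the keratins KRT8 and KRT18. The part of marker genes in the mitotic result was not tested.

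Cytokinesis and spindle-assembly genes shared 1 direction in SUM149: all 7 rose (ANLN, RACGAP1, ECT2, NUSAP1, PRC1, TOP2A and TPX2), with a median of 0.36 on the log2 scale. Of all tested genes 27.6% rose there. In BT-549 none of the 7 passed the test, where 33.3% of all tested genes did, with a median of -0.03 for the 7. ANLN, the anillin scaffold that ties actin, septins and RhoA together at the cleavage furrow (ENSG00000011426.10, protein coding, GRCh38 chromosome 7, 36389806 to 36453791, plus strand), had the largest change of all 45 genes. Its level was 365, 303 and 336 CPM in SUM149 MUC1shRNA libraries, against 126, 126 and 128 CPM in CshRNA libraries, a 2.66-fold rise (log2 fold change 1.41, SE 0.07, adjusted p = 4.8e-09 by edgeR). The arms stood far apart, and ANLN was the only one of the 45 genes that changed at least 2-fold past the test in either line, where 12.9% of all tested genes did so in SUM149. In BT-549 ANLN was at 1125, 1019 and 1138 CPM with MUC1shRNA, against 1231, 1242 and 1133 CPM with CshRNA, overlapping arms with a change of -0.14 (edgeR adjusted p = 0.1). Without BT-549 CshRNA 3, that adjusted p was 0.041. Even after the rise, ANLN in SUM149 stayed well below its level in any BT-549 library.

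RACGAP1 and ECT2 form the switch that turns RhoA on at the cell equator, RACGAP1 as a subunit of centralspindlin and ECT2 as the exchange factor it recruits. RACGAP1 was at 145, 145 and 148 CPM in SUM149 MUC1shRNA libraries, against 95.6, 97.5 and 105 CPM in CshRNA libraries, without overlap (log2 fold change 0.57, SE 0.06, edgeR adjusted p = 5.7e-06). ECT2 rose by 0.44 on the log2 scale (SE 0.07, adjusted p = 0.00013 by edgeR). NUSAP1, which bundles spindle microtubules around chromosomes, was at 238, 214 and 222 CPM in SUM149 MUC1shRNA libraries, against 174, 175 and 180 CPM in CshRNA libraries (log2 fold change 0.36). In BT-549 NUSAP1 was at 213, 226 and 211 CPM with MUC1shRNA, against 203, 206 and 196 CPM with CshRNA; the arms did not overlap, yet the change of 0.10 did not pass the test (edgeR adjusted p = 0.17). PRC1, the crosslinker of the central spindle, TOP2A, the topoisomerase that untangles sister chromatids, and TPX2, which activates AURKA on the spindle, rose in SUM149 by log2 fold changes of 0.27, 0.23 and 0.16. The rise of TOP2A was lost without SUM149 MUC1shRNA 1 (edgeR adjusted p = 0.055), and that of TPX2 was lost without CshRNA 2, CshRNA 3, MUC1shRNA 1 or MUC1shRNA 3 (edgeR adjusted p up to 0.14). The TPX2 call was also lost with no filter on low counts (0.29), with upper-quartile scaling (0.18), at equal depth (0.064) and with a filter of 5 CPM in 3 libraries (0.057). NUSAP1 and PRC1 share 62.2% and 57.6% of their exon bases with another annotated gene on the same strand. Neither of these partner genes was found by name among the counted genes. The annotation used for counting is not stated, so how reads of the shared bases were assigned remains uncertain.

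Spindle checkpoint and anaphase genes had the highest median of the classes in SUM149 and also the largest single fall. In SUM149, 6 of 9 rose (TTK, PTTG1, BUB1B, BUB1, UBE2C and CDC20), 2 fell (MAD2L1 and BUB3) and ESPL1 did not pass the test, with a median of 0.53. That is 66.7% rising and 22.2% falling, where 27.6% and 28.9% of all tested genes did so. In BT-549, 2 rose (TTK and PTTG1), 2 fell (UBE2C and CDC20) and 5 did not pass the test, with a median of -0.06. That is 22.2% in each direction, where 16.8% of all tested genes rose and 16.5% fell. The checkpoint kinase TTK, also known as MPS1 (ENSG00000112742.9, chromosome 6, 80003887 to 80042527, plus strand), was at 162, 148 and 168 CPM in SUM149 MUC1shRNA libraries, against 98.3, 99.0 and 93.1 CPM in CshRNA libraries (log2 fold change 0.73, SE 0.07, edgeR adjusted p = 1.2e-06). In BT-549 TTK was at 172, 172 and 175 CPM with MUC1shRNA, against 148, 148 and 128 CPM with CshRNA (0.29, SE 0.06, edgeR adjusted p = 0.0069). TTK thus rose in both lines without overlap of the arms.

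BUB1 and BUB1B (BubR1), kinase-family proteins that sit at unattached kinetochores, rose together in SUM149. BUB1B was at 192, 186 and 194 CPM in MUC1shRNA libraries, against 127, 123 and 119 CPM in CshRNA libraries (log2 fold change 0.65, SE 0.06, edgeR adjusted p = 1.5e-06). BUB1 was at 193, 181 and 195 CPM in MUC1shRNA libraries, against 126, 120 and 124 CPM in CshRNA libraries (0.63, SE 0.06, edgeR adjusted p = 1.8e-06). Both arms were clearly apart. The same genes overlapped between the arms of BT-549: BUB1B was at 115, 113 and 115 CPM with MUC1shRNA, against 112, 121 and 111 CPM with CshRNA, and BUB1 at 137, 134 and 141 CPM with MUC1shRNA, against 142, 149 and 137 CPM with CshRNA. BUB3, which anchors both at kinetochores, fell by 0.19 on the log2 scale in SUM149 (edgeR adjusted p = 0.023), a call lost at equal depth (0.054) and without SUM149 CshRNA 2 (adjusted p = 0.11), MUC1shRNA 2 (0.099) or MUC1shRNA 3 (0.11).

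MAD2L1, the checkpoint protein that binds and blocks CDC20 (ENSG00000164109.13, chromosome 4, 120055608 to 120067074, minus strand), went the other way. It was at 78.9, 59.4 and 62.1 CPM in SUM149 MUC1shRNA libraries, against 115, 129.5 and 116 CPM in CshRNA libraries (-0.84 on the log2 scale, SE 0.10, adjusted p = 8.6e-06 by edgeR). This was a 1.79-fold fall with no overlap, and it was the only one of the 45 genes to fall by more than 1.5-fold in SUM149. In BT-549 MAD2L1 was at 92.4, 89.7 and 93.0 CPM with MUC1shRNA, against 98.2, 97.1 and 87.7 CPM with CshRNA, and its arms overlapped. MAD2L1 in SUM149 was thus below its level in all BT-549 libraries with MUC1shRNA and above all of them with CshRNA.

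UBE2C and CDC20, which act with the APC/C, fell in BT-549 and rose in SUM149. UBE2C, the ubiquitin-conjugating enzyme that works with the APC/C (ENSG00000175063.16, chromosome 20, 45812576 to 45816957, plus strand), was at 252, 254 and 253 CPM in BT-549 MUC1shRNA libraries, against 300.1, 312 and 324 CPM in CshRNA libraries (log2 fold change -0.31, SE 0.05, edgeR adjusted p = 0.0016). In SUM149 UBE2C was at 170, 183 and 174 CPM with MUC1shRNA, against 120, 124 and 125 CPM with CshRNA (0.53, SE 0.06, edgeR adjusted p = 1.1e-05). CDC20 was at 382, 389 and 394 CPM in BT-549 MUC1shRNA libraries, against 456, 445 and 471 CPM in CshRNA libraries (-0.24, SE 0.05, edgeR adjusted p = 0.0047). The arms of both genes did not overlap in either line. In SUM149 CDC20 was at 414, 421 and 415 CPM with MUC1shRNA, against 352, 349.8 and 357 CPM with CshRNA (0.25, edgeR adjusted p = 0.0021). Securin, PTTG1, rose in both lines, by 0.22 in BT-549 and 0.65 in SUM149 (edgeR adjusted p = 0.04 and 1.1e-05), and the BT-549 call was lost when any BT-549 library other than CshRNA 3 was left out (adjusted p up to 0.14) and with upper-quartile scaling (0.059). ESPL1, which encodes separase, overlapped between arms in both lines.

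**Figure D2:**
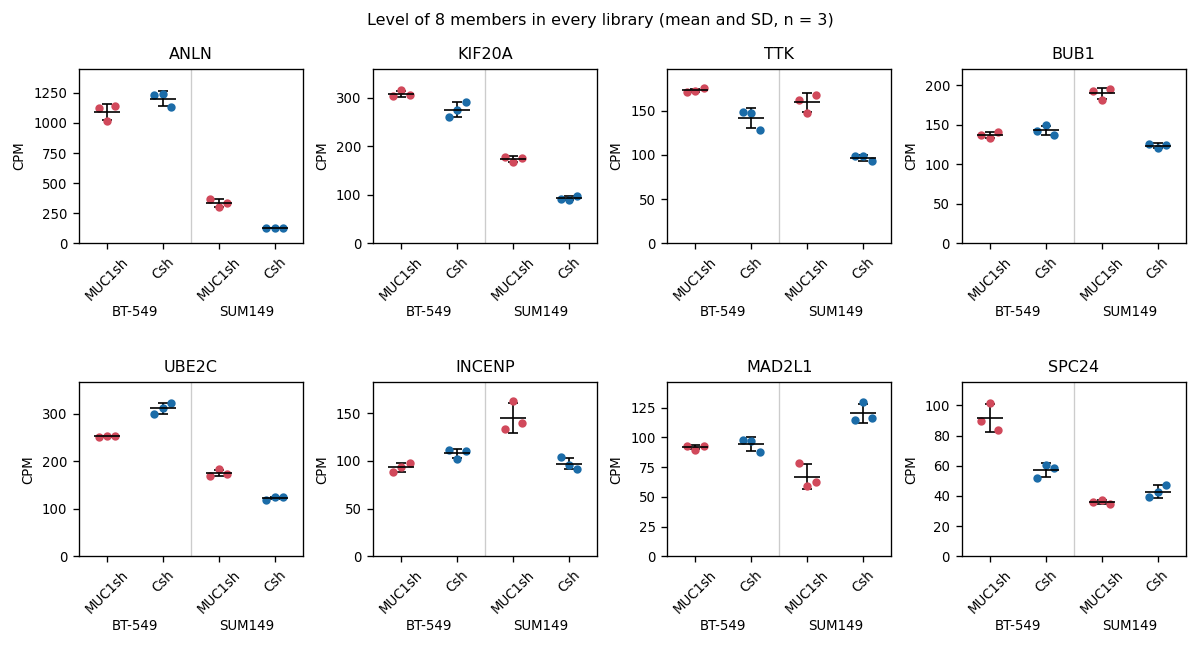
Level in CPM (vertical axis, from 0) of 8 genes in each of the 12 libraries, with the mean and SD of 3 libraries per group. ANLN, KIF20A, TTK and BUB1 are higher in SUM149 MUC1shRNA than in SUM149 CshRNA, MAD2L1 is lower there, UBE2C and INCENP are each lower with MUC1shRNA in BT-549 and higher with it in SUM149, and SPC24 is high in BT-549 MUC1shRNA.

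Every subunit of the chromosomal passenger complex rose in SUM149, 4 of 4 with a median of 0.45, where 27.6% of all tested genes rose. The complex corrects faulty attachments of kinetochores and later licenses cytokinesis. AURKB, its kinase, was at 122, 135 and 130 CPM in SUM149 MUC1shRNA libraries, against 92.0, 90.4 and 92.7 CPM in CshRNA libraries (log2 fold change 0.51, SE 0.06, edgeR adjusted p = 1.9e-05). INCENP, the scaffold that holds the complex together (ENSG00000149503.12, chromosome 11, 62123973 to 62153163, plus strand), was at 133, 162 and 139 CPM with MUC1shRNA, against 104, 96.2 and 91.6 CPM with CshRNA (0.59, SE 0.08, edgeR adjusted p = 5e-05). BIRC5 (survivin) rose by 0.40 and CDCA8 (borealin), at 103, 113 and 108 CPM with MUC1shRNA, against 91.2, 83.7 and 83.3 CPM in CshRNA libraries, by 0.34. In all 4 genes the SUM149 arms were separate. In BT-549 25% of the 4 genes passed the test, where 33.3% of all tested genes did. Only INCENP passed, and it fell: 88.3, 93.3 and 98.3 CPM with MUC1shRNA, against 111, 103 and 111 CPM with CshRNA (-0.22, SE 0.06, edgeR adjusted p = 0.023). That fall was not past the test without BT-549 CshRNA 1 (adjusted p = 0.078) or MUC1shRNA 1 (0.12), nor with all 12 libraries in one fit (0.052). For AURKB the BT-549 values were 123, 121 and 131 CPM with MUC1shRNA, against 117, 122 and 130.2 CPM with CshRNA, and for CDCA8 they were 171, 179 and 172 CPM with MUC1shRNA, against 186, 183 and 210.3 CPM with CshRNA; neither passed the test.

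Of the kinesins, 6 of 9 rose in SUM149 (KIF20A, KIF23, KIF11, KIF4A, KIF2C and KIF14), none fell, and the median was 0.28. That is 66.7% rising, where 27.6% of all tested genes rose and 28.9% fell. A fall of 1 kinesin was called with upper-quartile scaling, with no filter, with all 12 libraries in one fit and without SUM149 CshRNA 3. In BT-549, 1 of 9 rose (KIF23), none fell, and the median was 0.08. The 11.1% rising there stood beside 16.8% of all tested genes, and 16.5% of all tested genes fell. KIF20A, also called MKLP2, which carries the passenger complex to the central spindle (ENSG00000112984.11, chromosome 5, 138178719 to 138187715, plus strand), had the second largest rise of the 45 genes. It was at 178, 167 and 176 CPM in SUM149 MUC1shRNA libraries, against 91.4, 89.0 and 97.97 CPM in CshRNA libraries, a 1.89-fold rise (log2 fold change 0.92, SE 0.06, edgeR adjusted p = 8.2e-08). In BT-549 KIF20A was at 304, 316 and 305 CPM with MUC1shRNA, against 260, 276 and 291 CPM with CshRNA (0.16, edgeR adjusted p = 0.054). Its BT-549 arms did not overlap, and the change missed the threshold, although it passed without BT-549 CshRNA 3 (0.014).

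KIF23 (MKLP1), the motor subunit of centralspindlin and partner of RACGAP1, rose in both lines. It was at 230.3, 183 and 209 CPM in SUM149 MUC1shRNA libraries, against 143, 140.0 and 136 CPM in CshRNA libraries (log2 fold change 0.58, SE 0.08, edgeR adjusted p = 3.5e-05). BT-549 libraries had 179, 172 and 175 CPM with MUC1shRNA, against 146, 144 and 143 CPM with CshRNA (0.28, SE 0.05, edgeR adjusted p = 0.0021). No library of one arm crossed into the other. KIF11 (Eg5), which slides spindle poles apart, KIF4A, which shortens midzone microtubules, KIF2C (MCAK), a microtubule depolymerase, and KIF14, a cytokinesis motor, rose in SUM149 by 0.42, 0.30, 0.28 and 0.20. The rise of KIF14 was lost without CshRNA 2, CshRNA 3, MUC1shRNA 1 or MUC1shRNA 3 of SUM149 (edgeR adjusted p up to 0.11), with upper-quartile scaling (0.1) and with no filter (0.087). KIF18A, which dampens chromosome movements at the plate, was at 65.3, 69.1 and 68.8 CPM in BT-549 MUC1shRNA libraries, against 63.1, 60.1 and 53.6 CPM in CshRNA libraries, at an edgeR adjusted p of 0.053 (0.045 without BT-549 CshRNA 1). In SUM149 KIF18A was at 52.8, 44.9 and 50.7 CPM with MUC1shRNA, against 48.0, 50.2 and 44.98 CPM with CshRNA. KIF15 and KIF20B did not pass the test in either line. For KIF15, a backup motor for Eg5, the SUM149 log2 fold change was -0.21 (edgeR adjusted p = 0.094, and 0.015 without SUM149 CshRNA 3). For KIF20B, a motor of late mitosis, the SUM149 adjusted p was 0.081, and 0.049 without CshRNA 2 or without MUC1shRNA 2.

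Among the mitotic entry genes, 6 of 9 rose in SUM149 (CDK1, CCNB1, AURKA, NEK2, CCNA2 and PLK1) with a median of 0.26, and 3 of 9 rose in BT-549 (CDC25C, CCNA2 and NEK2) with a median of 0.06. That is 66.7% in SUM149 and 33.3% in BT-549, where 27.6% and 16.8% of all tested genes rose. None of the 9 fell in either line, although 1 did in SUM149 with upper-quartile scaling. CDK1, the kinase that drives entry, was at 150.2, 134 and 149 CPM in SUM149 MUC1shRNA libraries, against 88.1, 95.7 and 121 CPM in CshRNA libraries (log2 fold change 0.52, SE 0.10, edgeR adjusted p = 0.00065), with SUM149 CshRNA 3 the highest control. In BT-549 CDK1 was at 191, 200 and 197 CPM with MUC1shRNA, against 189.8, 179.8 and 169.8 CPM with CshRNA (0.12, edgeR adjusted p = 0.12). The CDK1 arms did not overlap in either line, narrowly so in BT-549. CCNB1, cyclin B1, was at 596, 622 and 614 CPM in BT-549 MUC1shRNA libraries, against 579, 575 and 596 CPM in CshRNA libraries, and at 319, 310 and 329 CPM in SUM149 MUC1shRNA libraries, against 224, 233 and 253 CPM in CshRNA libraries (0.44, SE 0.06, edgeR adjusted p = 6.2e-05). Cyclin A2, CCNA2, rose by about the same amount in both lines: 166, 159.9 and 169 CPM in BT-549 MUC1shRNA libraries, against 134, 144 and 129.8 CPM in CshRNA libraries (0.28), and 177, 164 and 182 CPM in SUM149 MUC1shRNA libraries, against 146, 151 and 145 CPM in CshRNA libraries (0.26).

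AURKA, the centrosome kinase, was at 249, 252 and 252 CPM in SUM149 MUC1shRNA libraries, against 200.1, 199 and 198 CPM in CshRNA libraries (log2 fold change 0.35, SE 0.06, edgeR adjusted p = 0.0002). In BT-549 it was at 306, 313 and 310 CPM with MUC1shRNA, against 329, 324 and 360.1 CPM with CshRNA (-0.13, edgeR adjusted p = 0.1). The arms were apart in both lines, upward in SUM149 and downward, short of the threshold, in BT-549. PLK1, the Polo kinase, was at 209, 224 and 212 CPM in BT-549 MUC1shRNA libraries, against 216, 235 and 250.3 CPM in CshRNA libraries, and at 197, 223 and 217 CPM in SUM149 MUC1shRNA libraries, against 186, 181 and 180.4 CPM in CshRNA libraries (0.23, edgeR adjusted p = 0.009). NEK2, which splits centrosomes, was at 99.4, 93.2 and 99.3 CPM in BT-549 MUC1shRNA libraries, against 79.2, 84.5 and 78.7 CPM in CshRNA libraries (0.27), and at 74.1, 59.7 and 69.8 CPM in SUM149 MUC1shRNA libraries, against 53.8, 56.3 and 51.2 CPM in CshRNA libraries (0.35). Both NEK2 changes passed the test (edgeR adjusted p = 0.0062 in BT-549 and 0.0029 in SUM149). FOXM1, the transcription factor for many of these genes, did not pass the test in either line. It was at 259, 245 and 263 CPM in BT-549 MUC1shRNA libraries, against 269, 273 and 294 CPM in CshRNA libraries, and at 272, 299 and 258 CPM in SUM149 MUC1shRNA libraries, against 270.0, 241 and 239.5 CPM in CshRNA libraries. Without SUM149 CshRNA 1 the SUM149 change of FOXM1, 0.16, passed (edgeR adjusted p = 0.043, against 0.094 with all libraries). CDC25C, the phosphatase that activates CDK1, rose by 0.31 in BT-549 (edgeR adjusted p = 0.013), but without BT-549 CshRNA 1 the adjusted p was 0.051. In SUM149 the change of CDC25C was -0.17 (edgeR adjusted p = 0.12), with all MUC1shRNA libraries below all CshRNA libraries. CCNB2, cyclin B2, passed the test in neither line.

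Among the centromere and kinetochore genes none of 7 rose in SUM149, 2 fell (SPC24 and NUF2), and the median was 0.02, a value that turned to -0.04 with upper-quartile scaling. These counts rest on single libraries: without SUM149 MUC1shRNA 2, 3 rose (NDC80, CENPE and SPC25, edgeR adjusted p = 0.0065, 0.03 and 0.046) and none fell. Without SUM149 CshRNA 2 or MUC1shRNA 3 none rose or fell. With all libraries, the 28.6% of the 7 that fell in SUM149 stood beside 28.9% of all tested genes, and 27.6% of all tested genes rose. The 7 do not stand for all kinetochore genes: of 30 others, described below, 63.3% rose in SUM149. In BT-549, 2 rose (SPC24 and SPC25), 2 fell (NUF2 and CENPF), and the median was 0.08. That is 28.6% in each direction, where 16.8% of all tested genes rose and 16.5% fell. SPC24, SPC25, NUF2 and NDC80 are the subunits of the NDC80 complex, the rod that couples kinetochores to microtubules, and the 4 did not move together in either line. SPC24 (ENSG00000161888.11, chromosome 19, 11131520 to 11155808, minus strand) had the largest change of the 45 genes in BT-549. It was at 89.8, 102 and 83.4 CPM in BT-549 MUC1shRNA libraries, against 52.1, 60.8 and 58.5 CPM in CshRNA libraries, a 1.601-fold rise (log2 fold change 0.68, SE 0.09, edgeR adjusted p = 0.0004). In SUM149 SPC24 was at 35.8, 37.5 and 34.8 CPM with MUC1shRNA, against 39.1, 42.5 and 47.2 CPM with CshRNA (-0.24, SE 0.09, edgeR adjusted p = 0.03). SPC24 was the only gene of the 45 that rose in BT-549 and fell in SUM149, and the fall was lost when any SUM149 library other than CshRNA 1 was left out (edgeR adjusted p from 0.051 to 0.14) and with DESeq2 (0.062).

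NUF2 was the only gene of the 45 that fell in both lines. It was at 113, 121 and 112 CPM in BT-549 MUC1shRNA libraries, against 136, 141 and 129 CPM in CshRNA libraries (log2 fold change -0.23, SE 0.06, edgeR adjusted p = 0.012). In SUM149 NUF2 was at 73.3, 62.6 and 71.4 CPM with MUC1shRNA, against 79.2, 85.9 and 78.5 CPM with CshRNA (-0.22, SE 0.08, edgeR adjusted p = 0.024). The arms were separate in both lines, although the BT-549 call was lost without MUC1shRNA 1 (adjusted p = 0.066) or MUC1shRNA 3 (0.062). The SUM149 call was lost without CshRNA 2 (0.098), MUC1shRNA 2 (0.14) or MUC1shRNA 3 (0.063), and at equal depth (0.12). NDC80 passed the test in neither line, at log2 fold changes of 0.08 in BT-549 and 0.16 in SUM149, and SPC25 rose by 0.25 in BT-549 (edgeR adjusted p = 0.035), where it reached no more than 18.3 CPM, and this call was lost when any single BT-549 library was left out (edgeR adjusted p up to 0.1), with DESeq2 (0.1), with no filter (0.1) and with all 12 libraries in one fit (0.067). CENPF, a corona protein that binds microtubule motors, fell by 0.17 in BT-549 (edgeR adjusted p = 0.043), a call lost when any BT-549 library other than CshRNA 2 was left out (adjusted p up to 0.17), with DESeq2 (0.061), with no filter (0.061) and with all 12 libraries in one fit (0.094). CENPA, the centromeric histone, and CENPE, a kinetochore kinesin, did not pass the test in either line. Their BT-549 log2 fold changes of -0.16 and 0.17 and SUM149 log2 fold changes of -0.10 and 0.16 carried standard errors of 0.07 to 0.09.

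**Figure D3:**
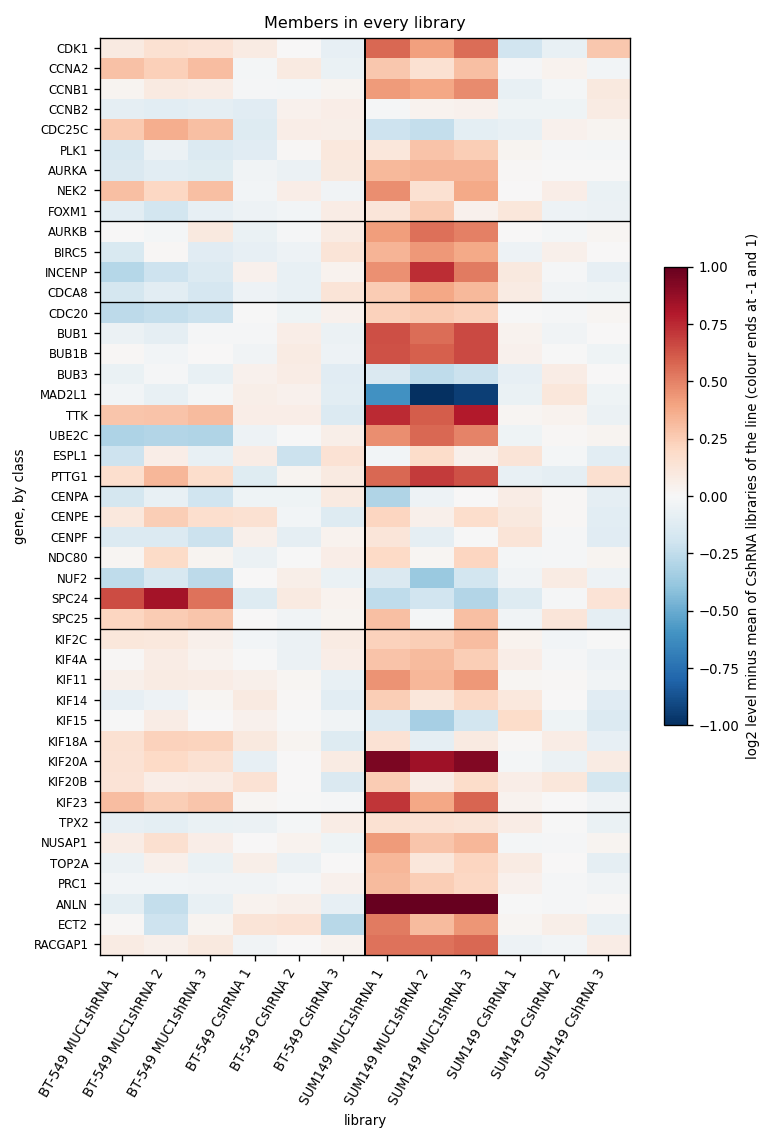
Log2 level of the 45 genes (rows, grouped by class) in the 12 libraries (columns), each minus the mean of the CshRNA libraries of the same line, with red above and blue below that mean. The SUM149 MUC1shRNA columns are red for most genes except in the centromere and kinetochore block, and MAD2L1 is the darkest blue.

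Whether the response differed between the lines was tested directly, as the interaction of line and hairpin over all 12 libraries, and given as BT-549 minus SUM149. For 29 of the 45 genes, 64.4%, the difference passed the test, where 39.6% of all 15649 tested genes did. It was negative, that is lower in BT-549, for 26 genes and positive for 3 (SPC24, MAD2L1 and CDC25C), where 20.1% and 19.5% of all tested genes were, with a median of -0.25 beside 0.04 for all tested genes. Negative differences covered all 7 cytokinesis and spindle-assembly genes, all 4 passenger complex genes, 6 of 9 checkpoint and anaphase genes, 5 of 9 entry genes and 4 of 9 kinesins. None of the 7 centromere and kinetochore genes had one, and SPC24 was positive. With other processing or with libraries left out, negative differences ran from 4 to 7 for the cytokinesis and spindle-assembly genes. They ran from 3 to 5 for the entry genes and from 3 to 5 for the kinesins. Of 21 such alternatives, the call was lost in 12 for TOP2A, 11 for FOXM1, 8 for TPX2 and 7 for CDK1. The smallest adjusted p-values belonged to ANLN (-1.54, edgeR adjusted p = 2e-08), UBE2C (-0.82, 6e-07), KIF20A (-0.74, 4.7e-06) and BUB1 (-0.68, 6.1e-06). Genes that rose in both lines could still differ: the difference was -0.43 for TTK and -0.29 for KIF23, both past the test, though that for KIF23 was lost when BT-549 CshRNA 1, BT-549 MUC1shRNA 2 or 3, SUM149 CshRNA 2 or SUM149 MUC1shRNA 1 or 3 was left out (edgeR adjusted p up to 0.085). For CCNA2 and NEK2 the difference was 0.04 and -0.07 (edgeR adjusted p = 0.77 and 0.66), with standard errors of 0.08 and 0.11.

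Set side by side, the calls of the lines paired as follows. The pairs were not counted over all tested genes, so they are a description and no pair is called particular to these genes. Line by line, 27.6% of all tested genes rose and 28.9% fell in SUM149, and 16.8% rose and 16.5% fell in BT-549. Of the 45 genes, 21 rose in SUM149 and did not pass the test in BT-549, 5 rose in both lines (CCNA2, NEK2, TTK, PTTG1 and KIF23), and 3 rose in SUM149 and fell in BT-549 (INCENP, CDC20 and UBE2C). The reverse, a rise in BT-549 and a fall in SUM149, was seen for SPC24. CDC25C and SPC25 rose in BT-549 and did not pass the test in SUM149. NUF2 fell in both, CENPF fell in BT-549, MAD2L1 and BUB3 fell in SUM149, and 9 genes passed the test in neither line. Changes were small by the standard of each line: 8 of the 45 genes moved by at least 1.5-fold past the test in SUM149, where 27.9% of all tested genes did, and 1 did in BT-549, where 10.1% did.

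**Figure D4:**
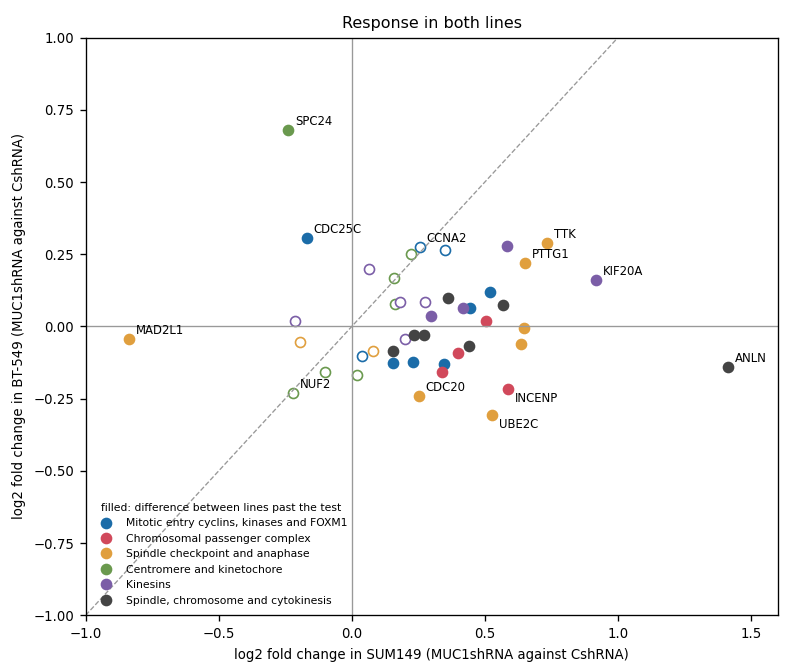
Log2 fold change of the 45 genes in BT-549 (vertical) and SUM149 (horizontal), coloured by class, with filled points where the difference between the lines passed the test and a dashed line of equal response. Most points lie right of and below the line, ANLN farthest to the right at 1.41, while SPC24 and MAD2L1 lie left of it.

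Before silencing, the mitotic genes stood higher in BT-549 than in SUM149. Between the CshRNA groups, 31 of the 45 genes were higher in BT-549, 4 were lower (MAD2L1, CENPA, TOP2A and PRC1) and 10 did not pass the test. That is 77.8% past the test, where 83% of all tested genes were, and 68.9% higher in BT-549, where 39.5% of all tested genes were higher and 43.5% lower. All 3 BT-549 libraries lay above all 3 SUM149 libraries for 30 genes and below them for 5, where 39.9% and 44.1% of all tested genes did so (84% in either direction). The call of TOP2A was lost without BT-549 CshRNA 2 or 3, SUM149 CshRNA 1 or 2, BT-549 MUC1shRNA 1 or SUM149 MUC1shRNA 3 (edgeR adjusted p up to 0.16), and with no filter (0.28). Among the genes higher in BT-549, the calls of FOXM1 and BIRC5 were each lost in 10 of 20 alternatives (edgeR adjusted p up to 0.67 and 0.69). The call of BUB1 was lost with upper-quartile scaling (0.12). That of NUSAP1 was lost with the same scaling (0.24) and with a filter of 5 CPM in 3 libraries (0.085). The median log2 difference was 0.38, beside -0.07 for all tested genes. ANLN differed most, by 3.24 on the log2 scale or 9.47-fold (edgeR adjusted p = 5.6e-15), followed by KIF20A at 1.57, PTTG1 at 1.54, UBE2C at 1.34, RACGAP1 at 1.33 and CCNB1 at 1.301. All 6 rose in SUM149 with MUC1shRNA, where 29 of all 45 genes rose, and none of the 6 reached there the level of any BT-549 library. The same SUM149 CshRNA libraries entered both comparisons, so low values there would raise both, and no link between them can be read from these genes. Cell line, medium and library set cannot be told apart in this comparison, and with upper-quartile scaling the median over all tested genes was -0.20 in place of -0.07.

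Levels differed widely among the genes once divided by exon length. In CPM per kilobase of exon, the group medians were 38.2 in BT-549 MUC1shRNA, 40.2 in BT-549 CshRNA, 34.8 in SUM149 MUC1shRNA and 25.9 in SUM149 CshRNA. TPX2 was highest in BT-549, at 242 CPM per kilobase with MUC1shRNA and 256 with CshRNA, and CDC20 was highest in SUM149, at 204 with MUC1shRNA and 173 with CshRNA. The motor KIF15 was lowest in all 4 groups, at 5.76 and 5.67 CPM per kilobase in BT-549 MUC1shRNA and CshRNA and at 4.29 and 5.01 in SUM149 MUC1shRNA and CshRNA. The span from the lowest to the highest gene was thus far wider than any change between arms.

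Promoters of 37 of the 45 genes could be matched by symbol to RefSeq windows that run from 250 bases before to 50 bases after the start site. AURKA, BIRC5, BUB3, FOXM1, RACGAP1, TPX2, TTK and UBE2C had no entry. The CHR core was found on either strand in 27 of 37 genes, 73%, where 18.2% of all 27305 genes with a window had it. A CCAAT box was found on either strand in 30 of 37, 81.1%, where 39.7% of all genes had it, and both motifs were found in 22 of 37, 59.5%, where 7.26% of all genes had them. By position, 17 of the 27 genes with a CHR core had one within 40 bases upstream, and 26 of the 30 with a CCAAT box had one between 120 and 40 bases upstream. A gene with several matches was counted if any of them lay there. These positions were not counted over all genes, so they are not a trait particular to the mitotic genes. The responses of genes with and without a CHR core are set side by side as a description. In SUM149, 15 of 27 genes with the core rose and 2 fell, with a median of 0.23, and 8 of 10 genes without it rose and 1 fell, with a median of 0.40. In BT-549, 3 of 27 with the core rose and 4 fell, and 4 of 10 without it rose and none fell. ANLN, whose doubled core is printed above, rose in SUM149, as did KIF20A, whose window has no core, and MAD2L1, which fell, has a core only downstream of its start site.

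**Figure D5:**
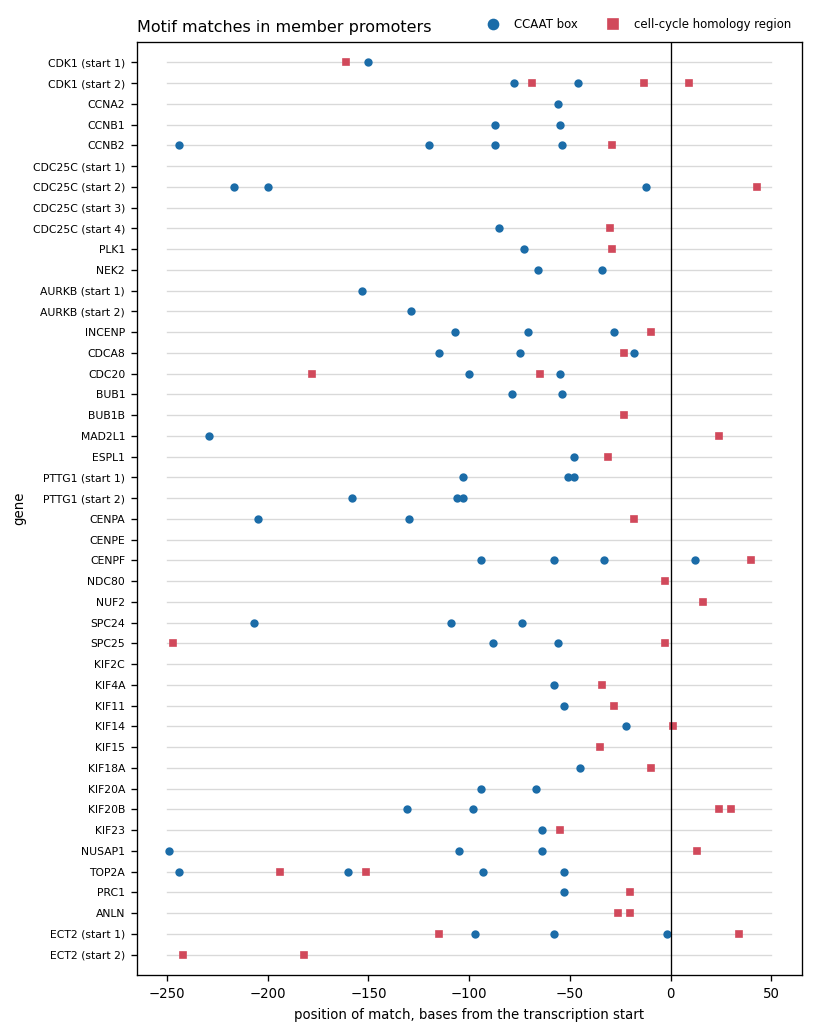
Position of CCAAT boxes (blue circles) and CHR cores (red squares) relative to the transcription start (horizontal axis, bases) in the promoter windows of 37 genes, with several lines where RefSeq lists several starts. CCAAT boxes gather between 120 and 40 bases upstream and CHR cores mostly within 40 bases of the start.

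Further genes of chromosome segregation, taken from 5 lists of 106 genes in all, were counted in the same way. In BT-549, 15 rose and 13 fell with a median of -0.0038, and in SUM149, 54 rose and 12 fell with a median of 0.21. That is 26.4% past the test in BT-549, where 33.3% of all tested genes were, and 62.3% in SUM149, where 56.5% were. In SUM149 50.9% rose, where 27.6% of all tested genes did, and 11.3% fell, where 28.9% did. Of 8 condensin subunits, which compact chromosomes, 6 rose in SUM149 and none fell, NCAPH by 0.69, while in BT-549 NCAPG rose by 0.39 and SMC4 and SMC2 fell by 0.22 and 0.19. Of 30 other kinetochore and centromere genes, 19 rose in SUM149 and 5 fell, with the largest rises for CENPI (0.93) and CENPW (0.89) of the inner kinetochore and SKA2 (0.83) of the outer one. In BT-549, 6 of these 30 rose, CENPQ most at 0.63, and 2 fell. SPDL1, which brings dynein to kinetochores, rose by 0.33 in BT-549 and fell by 0.51 in SUM149, the same pair of directions as SPC24. Of 13 cohesin genes and regulators, 3 rose and 2 fell in SUM149, among them ESCO2, which acetylates cohesin in S phase, at 1.06, and RAD21, the ring's cleavable subunit, at -0.39. Past the test in SUM149 were 75% of the condensin subunits, 80% of the 30 kinetochore and centromere genes and 38.5% of the cohesin genes. All tested genes there stood at 56.5%. In BT-549 these shares were 37.5%, 26.7% and 15.4%, beside 33.3% of all tested genes.

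Most APC/C genes did not pass the test, with 3 of 17 rising and 2 falling in BT-549 and 4 rising and 2 falling in SUM149. That is 29.4% past the test in BT-549 and 35.3% in SUM149, where 33.3% and 56.5% of all tested genes were. ANAPC13, a small structural subunit, fell most; it averaged 26.4 CPM in BT-549 MUC1shRNA and 79.2 CPM in CshRNA, and 14.7 CPM in SUM149 MUC1shRNA and 38.8 CPM in CshRNA. Its log2 fold changes were -1.59 and -1.39 (edgeR adjusted p = 8.1e-07 in BT-549 and 3.4e-08 in SUM149), larger than any fall among the 45. Of 38 other mitotic genes, 3 rose and 7 fell in BT-549 and 22 rose and 3 fell in SUM149. Past the test were 26.3% of these 38 in BT-549 and 65.8% in SUM149, beside the same shares of all tested genes. CDC25A, a phosphatase that activates CDKs at the start of S phase and in mitosis, fell by 0.38 in BT-549 and rose by 1.238 in SUM149. WEE1, the kinase that restrains CDK1, rose by 0.57 in BT-549 and by 0.25 in SUM149.

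Regulators and replication genes were read for context. Of 40 DNA replication genes, 5 rose and 9 fell in BT-549, with a median of -0.09, and 30 rose and 2 fell in SUM149, with a median of 0.50. In BT-549 35% of them were past the test, near the 33.3% of all tested genes. In SUM149 75% rose, where 27.6% of all tested genes did. FEN1, the flap nuclease (1.58), ORC1, of the origin recognition complex (1.39), and GINS1, of the replicative helicase (1.25), rose in SUM149, where the largest rise among the 45 genes was 1.41, that of ANLN. Of 22 transcriptional regulators, 3 rose and 3 fell in BT-549, and 9 rose and 6 fell among the 21 tested in SUM149. That is 27.3% past the test in BT-549 and 71.4% in SUM149, beside 33.3% and 56.5% of all tested genes. E2F1, an activator of S-phase genes, averaged 85.5 CPM with MUC1shRNA and 97.3 CPM with CshRNA in BT-549 (-0.19, edgeR adjusted p = 0.054), and 75.7 CPM with MUC1shRNA and 43.6 CPM with CshRNA in SUM149 (0.81, edgeR adjusted p = 1.2e-06). MYBL2, which works with MuvB and FOXM1, was at 0.05 in BT-549 and rose by 0.28 in SUM149, and MKI67, the Ki-67 proliferation marker, was at 0.04 in BT-549 and rose by 0.27 in SUM149. The CDK inhibitor p21, CDKN1A, rose in both lines, by 0.84 in BT-549 and 0.86 in SUM149.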

How the data were processed

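Each of 12 libraries gave 1 column of raw read counts per Ensembl gene, deposited by the authors without normalization. Per the labels, RNA was taken up in Trizol and libraries were made with a stranded mRNA kit. Per the submitters' processing notes, the tools were DESeq2 1.24.0, STAR 2.7.0 and CASAVA 1.8.2, and the build was GRCh38.p7. Their roles, the program that counted reads, how it treated strand and which annotation it used are not stated there, nor in the other sources used here. The table had 58037 lines, of which 45 copies from the Y pseudoautosomal regions were left out. Gene names and exons are from GENCODE 29.

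Counts were fitted with edgeR 4.0.16 in R 4.3.3 (TMM scaling, filterByExpr, quasi-likelihood test, Benjamini-Hochberg over all tested genes, threshold 0.05), each line alone. The difference between lines and the comparison of CshRNA groups used all 12 libraries. CPM share one TMM scale, so that deeper libraries give smaller counting error than the SUM149 MUC1shRNA libraries. The test was checked on simulated counts. Replicates differed by 1.85 to 14.5 chi-square per degree of freedom, so none was a copy of another.

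The genes and lists were chosen with earlier results of these data known. Values per library are given for the 2 genes per class and line with the lowest adjusted p, the 4 with the lowest for the difference, and FOXM1, CDK1, CCNB1, PLK1 and AURKB. MAD2L1 was added after its values were seen. From other lists, genes with the largest changes past the test were named, with MYBL2, E2F1, MKI67 and CDKN1A. Promoter windows are RefSeq's on GRCh38.p14. Alternatives were RLE and upper-quartile scaling, other filters, DESeq2 1.42.0, limma-voom (limma 3.58.1), one fit of all libraries, thinning, a replicate block and single libraries left out. Some genes of these lists are not reported here.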

Additional observations from a re-analysis of the deposited data

Results flagged for a closer look

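For 29 of the 45 genes the response to MUC1shRNA differed between the lines by the interaction test over all 12 libraries (edgeR's quasi-likelihood test, Benjamini-Hochberg over all 15649 tested genes), beside 39.6% of all tested genes. The values are log2 fold change in BT-549 minus log2 fold change in SUM149. Among cytokinesis and spindle-assembly genes the difference was -1.54 for ANLN, -0.49 for ECT2, -0.48 for RACGAP1, -0.29 for PRC1, -0.25 for TOP2A, -0.25 for NUSAP1 and -0.22 for TPX2. In the passenger complex it was -0.79 for INCENP, -0.48 for CDCA8, -0.47 for BIRC5 and -0.47 for AURKB. Checkpoint and anaphase genes had -0.82 for UBE2C, -0.68 for BUB1, -0.64 for BUB1B, -0.48 for CDC20, -0.43 for TTK and -0.41 for PTTG1, and the opposite sign, 0.81, for MAD2L1. Kinesins had -0.74 for KIF20A, -0.34 for KIF11, -0.29 for KIF23 and -0.25 for KIF4A. Entry genes had -0.46 for AURKA, -0.38 for CDK1, -0.36 for CCNB1, -0.34 for PLK1 and -0.27 for FOXM1, with 0.49 for CDC25C. The one kinetochore gene was SPC24 at 0.93, the most positive difference of the 45. For FOXM1 the difference passed the test although the change passed it in neither line alone. That difference was lost in 11 of 21 alternatives (edgeR adjusted p up to 0.15). Differences for CDK1, FOXM1, KIF4A, KIF23, TPX2, NUSAP1 and TOP2A were not past the test in at least one alternative.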

How the results depend on the processing

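No value of the 45 genes that passed the test changed sign under any alternative. Called in every alternative were 7 of 13 genes in BT-549, 27 of 33 in SUM149, 22 of 29 for the difference and 30 of 35 between the CshRNA groups. Genes that rose in SUM149 numbered 29 and ran from 26 to 33 over all alternatives. The 5 genes that fell in BT-549 became 3 with all 12 libraries in one fit and 8 without the pair of libraries that stood apart (CshRNA 3 and MUC1shRNA 2, chosen after seeing the data), and ran from 2 to 5 with single libraries left out. Without BT-549 MUC1shRNA 1, 2716 genes of all kinds passed the test there, in place of 4398, without the pair that stood apart 5325 did, and the range over single libraries was 2716 to 4470. The 4 genes that fell in SUM149 became 2 at equal depth and ran from 1 to 4 with single libraries left out. They became 6 with upper-quartile scaling, 5 with no filter and 5 with all 12 libraries in one fit. The 4 genes lower in BT-549 CshRNA became 8 with a filter of 5 CPM in 3 libraries and 8 with upper-quartile scaling. The cause of these moves was not tested.

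The labels do not say whether libraries with the same number in their titles belong together. Correlations of deviations between such libraries were 0.10, -0.25 and -0.20 in BT-549 and -0.07, 0.08 and 0.10 in SUM149. With 3 libraries per group, these values cannot settle whether the libraries were paired. With a replicate block, 6 of the 45 genes rose and 3 fell in BT-549 (2951 genes in all, in place of 4398), 29 rose and 4 fell in SUM149 (7934 in all), and 5634 genes in all differed between lines. Between the CshRNA groups, a block by number alone, chosen after seeing the data, gave 30 genes higher and 4 lower in BT-549, and FOXM1 was lost (edgeR adjusted p = 0.055).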
